A study of Mus musculus with 20 samples.

Results

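The miR-34 family was followed across mouse cortical neurons with and without the circular RNA ciRS-7, in normal culture and after oxygen-glucose deprivation (OGD). The family was taken as 6 mature forms, mmu-miR-34a-5p, mmu-miR-34a-3p, mmu-miR-34b-5p, mmu-miR-34b-3p, mmu-miR-34c-5p and mmu-miR-34c-3p, chosen by name (the mouse prefix mmu is left out below). Of these, 5 were among the 1481 miRNA features measured; miR-34a-3p was not analysed here. Neurons came from the cortex of embryos at embryonic day 15 and were cultured for 7 days. All samples carry the strain label C57BL/6N-Cdr1asem1Nikr, and the genotype label is either wild type or knockout of ciRS-7 or Cdr1as, a neuronal circular RNA with many binding sites for miR-7. Normoxic cultures had 25 mM glucose, 0.2 mM pyruvate and 5% CO2, whereas OGD cultures had 1% O2, 5% CO2 and neither added glucose nor added pyruvate. Both treatments lasted 12 h, and each of the 4 groups (wild-type normoxia, wild-type OGD, knockout normoxia and knockout OGD) held 5 biological replicates, 20 libraries in all. The labels do not say whether a replicate is a separate animal, litter or culture.

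The transcription factor p53 binds near the genes Mir34a and Mir34bc and raises their transcription after DNA damage and other stresses. The mature 5p arms then repress messages for cell cycle and survival proteins, among them Cdk6, Bcl2, Met and Sirt1. In the nervous system miR-34a is the broadly expressed member and has been tied to neuronal differentiation and death, while miR-34b, miR-34c and the related miR-449 are best known from cells with motile cilia. No mRNA or protein was measured in these libraries, so p53 itself was not observed.

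The sequences show which members can pair with the same messages, since a miRNA recognises its targets mainly through its seed (bases 2 to 8 from the 5′ end, in capitals here). They are RefSeq sequences on GRCm38.p6, written 5′ to 3′.
miR-34a-5p: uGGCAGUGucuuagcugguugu
miR-34b-5p: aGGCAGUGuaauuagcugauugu
miR-449a-5p: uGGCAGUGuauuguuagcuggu
miR-34b-3p: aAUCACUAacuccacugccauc
miR-34c-3p: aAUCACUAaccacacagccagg
miR-34a-3p: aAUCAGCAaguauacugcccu
The seed GGCAGUG was shared by miR-34a-5p, miR-34b-5p, miR-449a-5p and miR-449c-5p among the sequences read. No mature sequence is printed for miR-34c-5p, and it was not part of this comparison of seeds. The 3p arms formed a group of their own, with the seed AUCACUA in miR-34b-3p and miR-34c-3p. These 3p arms were identical over their first 10 bases and at 17 of 22 positions, and how the authors assigned reads that match both is not given in the sources used here. The miR-34a-3p seed was AUCAGCA.

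The family comes from 2 places in the genome. Mir34a lies at chr4:150068454-150068555 on the plus strand (GRCm38), and its last 17 bases overlap an exon of the unclassified transcript Gm37795 on the same strand. Mir34b (chr9:51103562-51103645) and Mir34c (chr9:51103034-51103110) lie on the minus strand, 451 bases apart. Both are inside the span of Btg4, a gene on the opposite strand, and overlap none of its exons in the GENCODE M21 annotation. Mir449a (chr13:113037534-113037624, plus strand) lies in an intron of Cdc20b on the same strand. The Mir34b hairpin shows how both arms come from 1 precursor, with the mature arms in capitals, the 5p arm first.
Mir34b: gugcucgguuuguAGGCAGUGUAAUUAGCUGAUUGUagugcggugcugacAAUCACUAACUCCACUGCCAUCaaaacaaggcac

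Library totals of miRNA reads ran from 1160582 to 12477032, and OGD libraries (1160582 to 4374002) were shallower than most normoxic ones (2492065 to 12477032). Levels are given as CPM, the usual counts-per-million scale, with the library sizes the authors used. A floor of 3 reads equalled 0.249 CPM in the deepest and 2.55 CPM in the shallowest library, a bound on counting error only. The neuronal label was met by the 5 neuronal miRNAs of the marker list (miR-124-3p, miR-128-3p, miR-137-3p, miR-138-5p and miR-218-5p), whose summed level was 48298 to 90858 CPM, while the 3 microglial and blood miRNAs summed to 0 to 4.39 CPM. Single neuronal markers moved with OGD in both directions: miR-124-3p was higher by 0.74 in wild type and 0.56 in knockout on the log2(CPM + 0.5) scale and miR-138-5p by 0.95 and 0.87, while miR-128-3p, the most abundant of them, differed by -0.57 and -0.53 (limma adjusted p between 1.93e-06 and 0.0103). miR-137-3p was called higher in knockout (0.38, limma adjusted p = 0.0127) and not in wild type, where it was called higher in 3 of 12 alternative settings; the interaction term was not called. In centred libraries miR-124-3p lost its call in both genotypes and miR-137-3p turned to -0.13 in knockout, while miR-138-5p and miR-128-3p kept direction and call. The miR-128-3p call in knockout was lost in 3 of 12 settings and in 2 of 10 fits that left out a library. Other markers were also measured: the 2 endothelial miRNAs summed to 269 to 393 CPM, and the 2 choroid plexus miRNAs to 109.6 to 201 CPM. In wild-type normoxia endothelial miR-126a-3p averaged 335 CPM, above neuronal miR-138-5p (233 CPM) and miR-34c-5p (66.3 CPM). Of these other markers, endothelial miR-126a-5p was called higher after OGD in wild type (0.57, limma adjusted p = 0.0377) and oligodendrocyte miR-338-3p in knockout (0.75, limma adjusted p = 0.0161). Both calls were lost in centred libraries (differences of 0.01 and 0.24), and that of miR-126a-5p in 7 of 10 fits that left out a library. Endothelial miR-126a-3p was not called and differed by -0.06 in wild type and -0.13 in knockout. Oligodendrocyte miR-219a-2-3p (0.18 and -0.30) and miR-219a-5p (-0.36 and 0.19) were not called either. The part of these markers in the miR-34 differences was not tested. In the first principal component, which held 83.0% of the variance of 423 features, wild-type normoxic replicate 5 lay at -0.88, the other normoxic libraries between -14.46 and -6.46 and the OGD libraries between 7.00 and 15.05. That library also had the lowest miR-34b-5p and miR-34c-5p levels of its group, and some results are also given without it.

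The members kept a fixed order of level in nearly every library. The most abundant was miR-34c-5p, followed by miR-34a-5p, miR-34b-5p, miR-34b-3p and miR-34c-3p. The read count of miR-34c-5p exceeded that of miR-34a-5p in 20 of 20 libraries, and miR-34a-5p exceeded miR-34b-5p in 20 of 20. The neighbours miR-34b-5p and miR-34b-3p were closer, with the 5p arm ahead in 18 of 20 libraries, and miR-34b-3p exceeded miR-34c-3p in 20 of 20. Even the most abundant member was a minor miRNA of these neurons: miR-34c-5p ranked between 212 and 291 among all features of a library by reads, and miR-34a-5p between 303 and 357. Mature forms differ by a base or so in length, so CPM was compared between them without a length correction; how well each form was captured in library preparation was not measured.

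**Figure D1:**
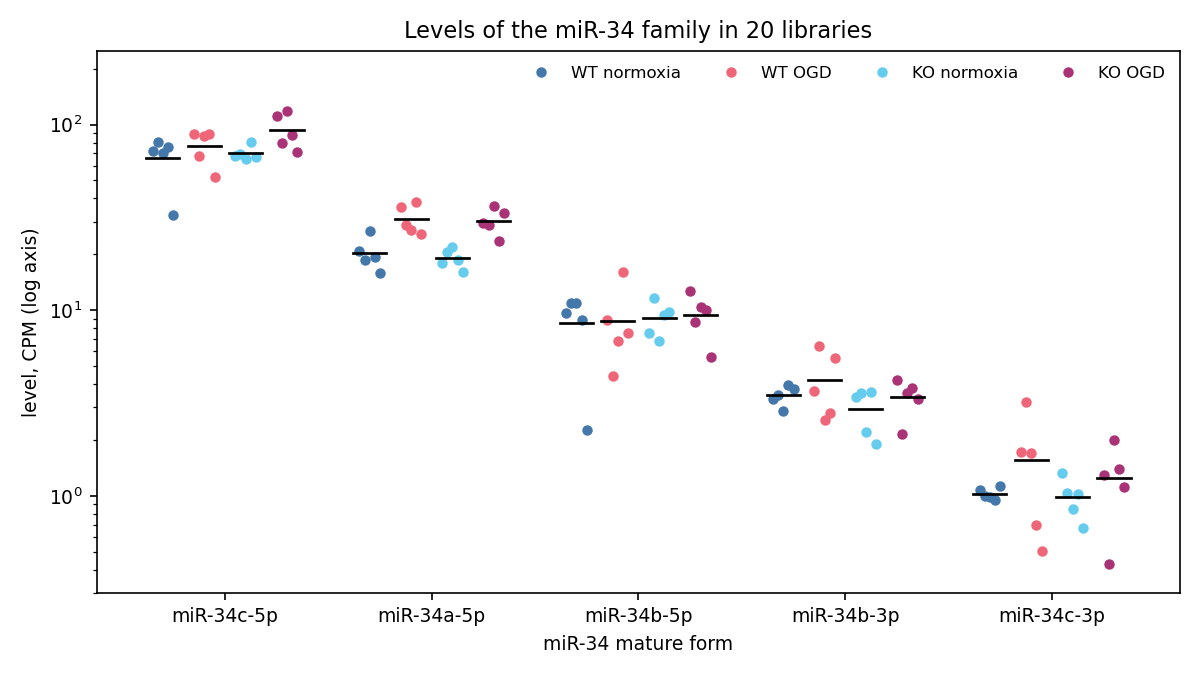
Level of each measured miR-34 form in the 20 libraries, in CPM on a log axis; points are libraries, coloured by group, and black bars are group means. The miR-34a-5p group means are higher after OGD (31.2 and 30.3 CPM) than in normoxia (20.3 and 19.0 CPM), with some overlap of points, while 1 wild-type normoxic library stands low for miR-34c-5p (32.5 CPM) and miR-34b-5p (2.27 CPM).

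Pooled over the 5 libraries of a group, miR-34c-5p had 3.36 reads for each read of miR-34a-5p in wild-type normoxia, 2.42 in wild-type OGD, 3.77 in knockout normoxia and 3.20 in knockout OGD. The 2 miRNAs of the chromosome 9 cluster differed far more from each other, although they lie 451 bases apart. There were 7.47 reads of miR-34c-5p for each read of miR-34b-5p in wild-type normoxia, 9.27 in wild-type OGD, 7.75 in knockout normoxia and 9.72 in knockout OGD. Among the 5p arms of miR-34a, miR-34b, miR-34c and miR-449a, miR-34c-5p made up 55.6% ± 6.27 of reads in wild-type normoxia (SD, n = 5), 52.3% ± 3.01 in wild-type OGD, 57.7% ± 2.78 in knockout normoxia and 56.3% ± 4.95 in knockout OGD. The share of miR-34a-5p was 17.8% ± 3.45, 21.5% ± 2.73, 15.7% ± 1.86 and 18.5% ± 3.03 in the same order (SD, n = 5). Summed, these 4 arms reached 118 ± 27.0 CPM in wild-type normoxia, 147 ± 30.2 in wild-type OGD, 121 ± 7.94 in knockout normoxia and 165 ± 23.4 in knockout OGD (SD, n = 5).

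The first question was whether OGD changed the family in wild-type neurons. miR-34a-5p rose about 1.52-fold, and no other member passed the test. Folds are given as 2 raised to the mean difference in log2(CPM + 0.5). In normoxia, miR-34a-5p was at 20.9, 18.7, 26.7, 19.3 and 15.9 CPM in replicates 1 to 5. After OGD it was at 35.9, 28.9, 27.2, 38.2 and 25.6 CPM. The OGD libraries were the higher ones, and 4 of 5 lay above every normoxic library; OGD replicate 5 fell just below normoxic replicate 3. The difference was 0.61 on the log2(CPM + 0.5) scale (SE 0.18, 95% interval 0.23 to 0.99, limma adjusted p = 0.020). It became -0.04 (adjusted p = 0.911) after quantile normalization and 0.05 (adjusted p = 0.884) when each library was centred on the median of its abundant features, which shifted all wild-type differences by 0.56. The call is thus for a share of miRNA reads, and in centred libraries none was made. The median difference of the 425 abundant features was 0.224 in CPM and -0.34 in centred libraries, below that of miR-34a-5p. Centring shifts both alike, so their order is necessarily the same on either scale. In these bulk samples, fewer cells of a type and less RNA per cell cannot be told apart. The call was also absent when libraries were thinned to 1160582 reads (0.37, adjusted p = 0.320) and in 3 of 10 fits that left out a library. These were without normoxic replicate 2 (0.59, limma adjusted p = 0.0531), OGD replicate 1 (0.55, 0.0508) or OGD replicate 4 (0.53, 0.0505). Over the 10 fits the difference ran from 0.53 to 0.71.

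The cluster members did not pass the test in wild-type neurons. miR-34c-5p was at 72.4, 80.6, 70.2, 75.8 and 32.5 CPM in normoxia. After OGD it was at 88.5, 67.5, 86.6, 89.0 and 52.2 CPM. Normoxic replicate 5 was lower than the rest of its group, and the groups overlapped. The difference of 0.25 (SE 0.22, 95% interval -0.22 to 0.71, limma adjusted p = 0.457) did not pass the test, and it was 0.01 (adjusted p = 0.966) without normoxic replicate 5. For miR-34b-5p the normoxic levels were 9.63, 10.9, 10.9, 8.88 and 2.27 CPM, the lowest from 6 reads. Its OGD levels were 8.85, 4.42, 6.80, 15.99 and 7.53 CPM. They spread on both sides of the normoxic ones, with a difference of 0.08 (SE 0.37, adjusted p = 0.901) that was -0.31 (adjusted p = 0.442) without normoxic replicate 5. The 3p arms were rarer. miR-34b-3p was at 3.48 ± 0.433 CPM in normoxia and 4.19 ± 1.71 after OGD (SD, n = 5), a difference of 0.17 (limma adjusted p = 0.707). miR-34c-3p, with 1 to 9 reads per library, was at 1.03 ± 0.0741 and 1.57 ± 1.08 CPM (SD, n = 5), a difference of 0.28 (limma adjusted p = 0.617).

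In all, 1 of 5 members was called in wild-type neurons, and it was higher. Over all features, 341 of 1478 (23.1%) were called in either direction and 18.7% were called higher, so 1 of 5 is near the background. The members' median difference was 0.25, against 0.317 over all features. Among 425 abundant features (those whose log2(CPM + 0.5) averaged at least 3) the median was 0.224 and 47.3% were called; 23.1% had a larger difference than miR-34a-5p, and 46.1% a larger one than miR-34c-5p.

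In knockout neurons OGD was followed by a rise of miR-34a-5p of much the same size, 1.57-fold, and by a rise of miR-34c-5p, 1.31-fold. Normoxic levels of miR-34a-5p were 17.9, 20.6, 22.0, 18.6 and 16.02 CPM. After OGD they were 29.6, 28.8, 36.3, 23.6 and 33.4 CPM. Every OGD library lay above every normoxic one, as it did in either direction for 19.1% of all features. The difference was 0.65 (SE 0.15, 95% interval 0.35 to 0.96, limma adjusted p = 0.00278), and it kept its call in 10 of 10 fits that left out a library (adjusted p 0.00171 to 0.0110). In centred libraries, where all knockout differences shifted by 0.51, it was 0.14 (adjusted p = 0.490), and after quantile normalization it was 0.13 (adjusted p = 0.580). The median difference of the 420 abundant features was 0.196 in CPM and -0.31 in centred libraries.

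For miR-34c-5p the knockout normoxic levels were 68.1, 69.4, 65.1, 80.3 and 67.1 CPM. The OGD levels were 111.5, 79.9, 117.7, 88.2 and 70.8 CPM. OGD replicates 1, 3 and 4 lay above every normoxic library, while replicates 2 and 5 fell below normoxic replicate 4. The difference of 0.39 (SE 0.14, 95% interval 0.10 to 0.68, limma adjusted p = 0.0450) turned to -0.12 (adjusted p = 0.614) in centred libraries and to -0.06 (adjusted p = 0.849) after quantile normalization. It lost its call in 8 of 10 fits that left out a library, each one except knockout OGD replicates 2 and 5. Over the 10 fits the difference ran from 0.30 to 0.49, with limma adjusted p between 0.0124 and 0.119. The call was also lost with total reads as library size (adjusted p = 0.0622). miR-34b-5p did not pass the test, at 7.57, 11.7, 6.82, 9.44 and 9.79 CPM in normoxia. After OGD it was at 12.7, 8.59, 10.4, 10.1 and 5.57 CPM. Its groups overlapped, with a difference of 0.04 (SE 0.22, 95% interval -0.42 to 0.50, adjusted p = 0.921). The 3p arms did not pass either, with miR-34b-3p at 2.95 ± 0.830 and 3.43 ± 0.785 CPM (SD, n = 5; 0.20, limma adjusted p = 0.628) and miR-34c-3p at 0.984 ± 0.246 and 1.25 ± 0.563 CPM (SD, n = 5; 0.18, limma adjusted p = 0.719).

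Thus 2 of 5 members were called in knockout neurons, both higher, where 363 of 1479 features (24.5%) were called and 18.8% were called higher; with 5 members, and 1 of the 2 calls lost in most fits that left out a library, the count is not read as above the background. The members' median difference was 0.20, against 0.236 over all features. Among 420 abundant features the median was 0.196 and 53.6% were called; 20.7% had a larger difference than miR-34a-5p and 33.1% a larger one than miR-34c-5p.

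**Figure D2:**
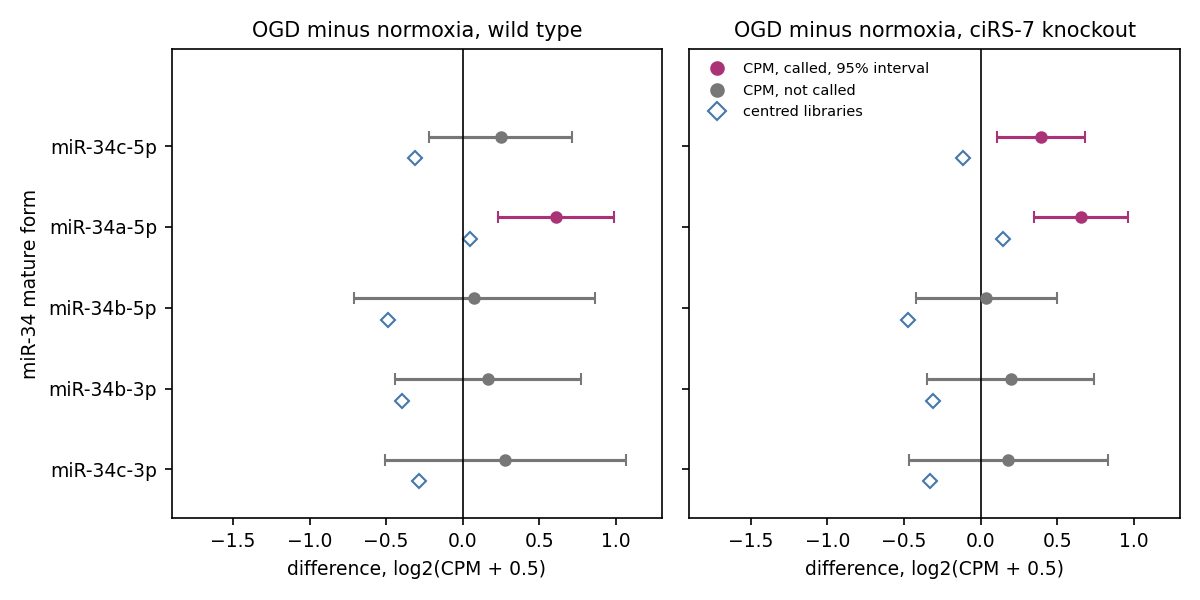
Difference between OGD and normoxia for each measured member, in log2(CPM + 0.5), wild type on the left and knockout on the right. Filled circles with bars are the limma estimates and 95% intervals, purple where the adjusted p is under 0.05. Open diamonds are the estimates in centred libraries, where miR-34a-5p lies at 0.05 and 0.14 and the other 4 members lie below 0. The median abundant feature lies at -0.34 and -0.31 on that scale.

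The size of the counting error differed between members. For miR-34c-5p the spread between replicates (coefficients of variation of 8.51% to 29.1% over the 4 groups) was more than the 4.03% to 8.45% that counting alone gives. For miR-34a-5p the spread was 12.2% to 19.9% and the counting part 7.85% to 13.1%. For miR-34c-3p counting alone gives 33.6% to 56.8%, which was larger than the observed 7.21% to 45.2% in 3 of 4 groups.

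Ratios between members within a library do not depend on how libraries are scaled, so they were tested separately, with exact two-sided permutation tests of 5 against 5 libraries and Benjamini-Hochberg adjustment over 16 tests (4 ratios in 4 comparisons). None passed: the smallest adjusted p was 0.667 and the smallest unadjusted p was 0.103, where the design allows 0.00794. The log2 ratio of miR-34c-5p to miR-34a-5p was 1.65 ± 0.44 in wild-type normoxia and 1.28 ± 0.23 in wild-type OGD (SD, n = 5), a difference of -0.37 (exact permutation p = 0.127, adjusted 0.667). In knockout neurons it was 1.88 ± 0.23 in normoxia and 1.61 ± 0.35 in OGD (SD, n = 5), a difference of -0.28 (exact permutation p = 0.167, adjusted 0.667). The groups overlapped in both genotypes, so a larger OGD difference of miR-34a-5p than of miR-34c-5p was not shown by this test. The ratio of the cluster's 5p arms, miR-34b-5p to miR-34c-5p, went from -3.06 ± 0.40 to -3.19 ± 0.59 in wild type (SD, n = 5; exact permutation p = 0.667, adjusted 0.862). In knockout neurons it went from -2.96 ± 0.28 to -3.30 ± 0.23 (SD, n = 5; exact permutation p = 0.111, adjusted 0.667).

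The arm ratios describe how much of each precursor's product was counted from the 3p side. Arms of miR-34b were within a few fold of each other, with 2.81 reads of the 5p arm for each of the 3p arm in wild-type normoxia, 1.90 in wild-type OGD, 2.99 in knockout normoxia and 2.82 in knockout OGD (pooled over 5 libraries). Arms of miR-34c were far apart, with 69.9, 45.4, 69.4 and 75.3 reads of the 5p arm for each of the 3p arm in the same order. The log2 arm ratio of miR-34b differed by 0.14 between OGD and normoxia in wild type (exact permutation p = 0.841, adjusted 0.897) and by 0.23 in knockout (exact permutation p = 0.437, adjusted 0.776). That of miR-34c differed by 0.27 (exact permutation p = 0.579, adjusted 0.843) and by 0.01 (exact permutation p = 0.984, adjusted 0.984). Wild-type normoxic replicate 5 was the highest of its group in both arm ratios: miR-34b had 1.67 reads of the 3p arm for each of the 5p arm there, from 10 and 6 reads, and 0.261 to 0.447 in the other 4 libraries. The wild-type differences without that library were 0.59 and 0.57, with adjusted p = 0.698 for both by the exact permutation test.

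**Figure D3:**
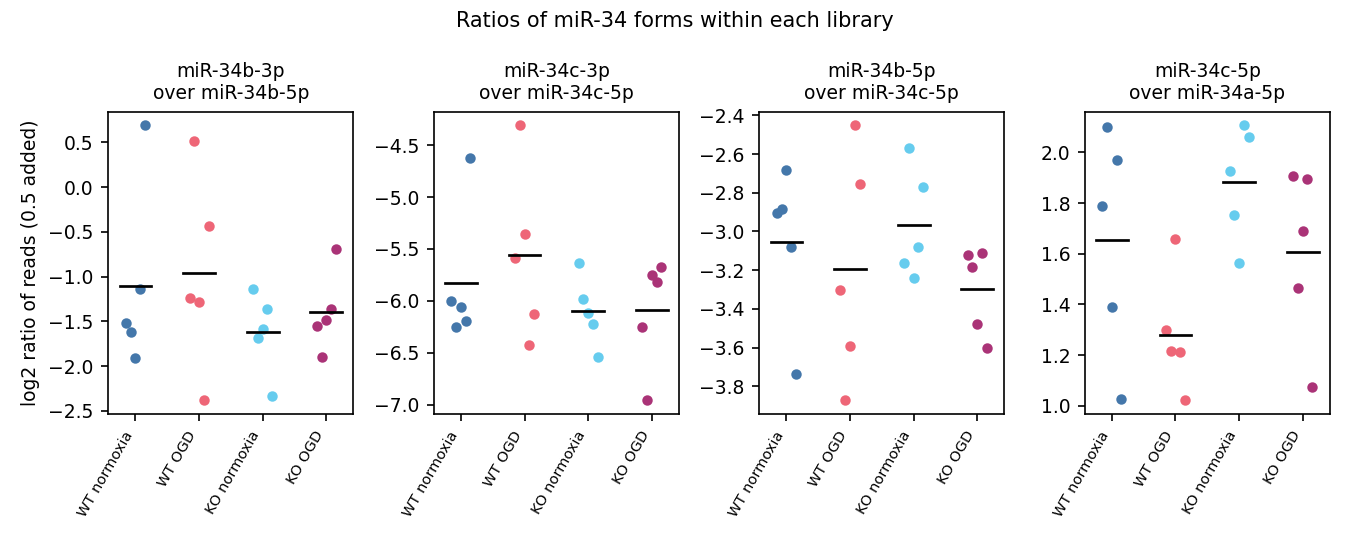
Within-library log2 ratios of reads (0.5 added to each count) for the pairs of miR-34 forms named above each panel; points are libraries, black bars group means, and each panel has its own vertical axis. The groups overlap in the OGD comparisons of every panel, and wild-type normoxic replicate 5 is the highest point of its group in both arm-ratio panels.

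The second question was whether loss of ciRS-7 changed the family. In normoxia, 0 of 5 members passed the limma test, 0 had an unadjusted p under 0.05, and 0 passed with limma voom on the recovered reads. Over all features the limma count was likewise 0 of 1481 (0%), with 47 at an unadjusted p under 0.05. For miR-34a-5p the knockout mean was 19.0 ± 2.33 CPM against 20.3 ± 4.03 in wild type (SD, n = 5), a difference of -0.08 with a 95% interval from -0.40 to 0.24 (limma adjusted p = 0.984). It was -0.16 without wild-type replicate 5 and 0.02 without wild-type replicate 3. For miR-34c-5p the means were 70.0 ± 5.96 and 66.3 ± 19.3 CPM (SD, n = 5), a difference of 0.14 with a 95% interval from -0.30 to 0.58 (limma adjusted p = 0.984), which was -0.10 without wild-type replicate 5. The difference was 0.22 for miR-34b-5p (95% interval -0.50 to 0.95; -0.16 without wild-type replicate 5), -0.24 for miR-34b-3p (-0.70 to 0.22) and -0.06 for miR-34c-3p (-0.52 to 0.40); after thinning to 1160582 reads the 3p arms were at 0.17 and -0.72. The intervals leave room for differences in either direction for all 5 members.

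After OGD, 0 of 5 members passed again, with 0 at an unadjusted p under 0.05 and 0 by limma voom. The count over all features was 0 of 1481 (0%) with limma, 108 of them at an unadjusted p under 0.05. miR-34c-5p was at 93.6 ± 20.3 CPM in knockout and 76.8 ± 16.4 in wild type (SD, n = 5), a difference of 0.29 (95% interval -0.05 to 0.62, limma adjusted p = 0.704) that fell to 0.16 without wild-type OGD replicate 5. For miR-34a-5p the means were 30.3 ± 4.83 and 31.2 ± 5.57 CPM (SD, n = 5), a difference of -0.04 (95% interval -0.39 to 0.32, limma adjusted p = 0.988). It ran from -0.10 to 0.05 over the 10 fits that left out a library. miR-34b-5p was at 9.46 ± 2.62 CPM in knockout and 8.72 ± 4.37 in wild type (SD, n = 5), a difference of 0.18 (95% interval -0.40 to 0.77) that was -0.11 after thinning and ran from -0.01 without wild-type OGD replicate 2 to 0.42 without wild-type OGD replicate 4.

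The effect of OGD was compared between genotypes with an interaction term over all 20 libraries, since a call for miR-34c-5p in knockout and none in wild type does not show that they differ. The interaction was 0.15 for miR-34c-5p (95% interval -0.43 to 0.72, limma adjusted p = 0.990) and 0.05 for miR-34a-5p (95% interval -0.42 to 0.51, limma adjusted p = 0.990). No member passed with limma or limma voom, 0 of 5 had an unadjusted p under 0.05, and 0 of 1481 features (0%) passed with limma, with 74 at an unadjusted p under 0.05. For the other 3 members the interaction lay between -0.10 and 0.03, although that of the rare miR-34c-3p was 1.01 (limma adjusted p = 0.971) after thinning. Single libraries moved these values. Without wild-type normoxic replicate 5 the interaction was 0.38 for miR-34c-5p (limma adjusted p = 0.687), 0.35 for miR-34b-5p (0.943) and 0.13 for miR-34a-5p, and without wild-type OGD replicate 5 it was 0.01 for miR-34c-5p.

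The related miR-449a-5p carries the seed printed above for miR-34a-5p. Of 7 listed miR-449 names, 3 were measured, and of these miR-449b had at most 2 reads and miR-449c-3p at most 1 read per library. miR-449a-5p had more reads than miR-34a-5p in 15 of 20 libraries and fewer than miR-34c-5p in 20 of 20. In wild-type normoxia it was at 20.3, 21.0, 28.0, 23.4 and 19.3 CPM. After OGD it was at 26.0, 31.3, 35.7, 38.9 and 17.6 CPM. The OGD libraries included the lowest value of all, and the difference of 0.37 did not pass the test (limma adjusted p = 0.214). In knockout neurons the levels were 19.5, 23.8, 25.9, 24.5 and 22.7 CPM in normoxia. After OGD they were 27.3, 30.9, 33.5, 31.2 and 34.5 CPM, with no overlap, as for 19.1% of all features in either direction. That difference of 0.43 (SE 0.13, limma adjusted p = 0.0194) turned to -0.08 (adjusted p = 0.702) in centred libraries and -0.09 (adjusted p = 0.689) after quantile normalization. As measured values beside these, the 2 choroid plexus miRNAs (a tissue with ciliated cells) summed to 109.6 to 154 CPM in wild-type normoxia, 127 to 158 in wild-type OGD, 120 to 187 in knockout normoxia and 142 to 201 in knockout OGD; the part of such cells in the miR-34 and miR-449 levels was not tested.

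Other miRNAs tied to p53 were described as a list of 12, of which 11 were measured. In wild-type neurons 2 of 11 rose after OGD and 0 fell, where 18.7% of all features were called higher, so the count is at the background. These were miR-15a-5p and miR-16-5p, which target Bcl2 and cyclin messages. Mir15a lies beside Mir16-1, and since miR-16-5p is also made from Mir16-2, its reads cannot be assigned to either gene. In knockout neurons 4 of 11 rose and 0 fell, with miR-107-3p and miR-215-5p added, where 18.8% of all features were called higher. The list's median difference was 0.38 in wild type and 0.43 in knockout, against 0.317 and 0.236 over all features. miR-16-5p was at 1597 ± 218 CPM in wild-type normoxia and 2618 ± 181 after OGD (SD, n = 5), a difference of 0.72 (SE 0.11, limma adjusted p = 4.16e-05), and its groups did not overlap, as for 16% of all features. miR-15a-5p went from 36.7 ± 12.2 to 60.4 ± 8.46 CPM (SD, n = 5), a difference of 0.78 (SE 0.22, limma adjusted p = 0.0155). In knockout neurons the difference was 0.76 for miR-16-5p (limma adjusted p = 1.52e-05), 0.81 for miR-15a-5p (1.96e-04), 0.43 for miR-107-3p (4.01e-04) and 0.87 for miR-215-5p (0.0261), the last at 1.88 ± 0.254 CPM in normoxia and 4.01 ± 1.32 after OGD (SD, n = 5). miR-107-3p is near-identical to miR-103-3p, and how reads were shared between them is not given in the sources used here.

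A pair of these calls lay near the threshold. miR-15a-5p in wild type lost its call without OGD replicate 1, 2, 3 or 5 (limma adjusted p up to 0.0677), with differences of 0.54 to 0.90 over the 10 fits that left out a library. miR-215-5p in knockout lost it in 6 of 10 fits that left out a library, without normoxic replicate 1, 3, 4 or 5 or OGD replicate 4 or 5 (limma adjusted p up to 0.0616), with differences of 0.77 to 1.07. The calls also moved with the scaling. In centred libraries without the replicate block none of the 4 was called in either genotype, with adjusted p of 0.0805 for miR-16-5p, 0.0954 for miR-15a-5p, 0.343 for miR-215-5p and 0.535 for miR-107-3p in knockout neurons, where miR-107-3p turned to -0.08; with the block added, miR-16-5p in knockout kept its call (0.25, adjusted p = 0.0357). After quantile normalization miR-16-5p kept its call in both genotypes, with differences of 0.62 and 0.65, and miR-107-3p kept it in knockout (0.34, adjusted p = 0.0027); miR-15a-5p and miR-215-5p did not. The remaining measured p53-linked miRNAs (miR-192-5p, miR-194-5p, miR-143-3p, miR-145a-5p, miR-200c-3p, miR-141-3p and miR-22-3p) did not pass the test in either genotype on the CPM scale. Relative to centred libraries, miR-192-5p was called lower in both genotypes (-0.39 and -0.42), as were miR-22-3p in both (-0.51 in each) and miR-194-5p in knockout (-0.31). The median abundant feature itself lay at -0.34 in wild type and -0.31 in knockout on that scale. miR-141-3p, at most 0.325 CPM on average in a group, was too rare for a direction to be read. miR-605-5p was not analysed here. Levels were high for miR-192-5p and miR-194-5p, which come from neighbouring hairpins (miR-194-5p also from a hairpin beside Mir215) and stood at 311 ± 34.6 and 298 ± 22.9 CPM in wild-type normoxia (SD, n = 5), and miR-22-3p, at 651 ± 32.8 CPM in wild-type normoxia and 674 ± 38.3 after OGD (SD, n = 5; difference 0.05, limma adjusted p = 0.734). Between genotypes 0 of the 11 were called by limma, in normoxia or after OGD.

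**Figure D4:**
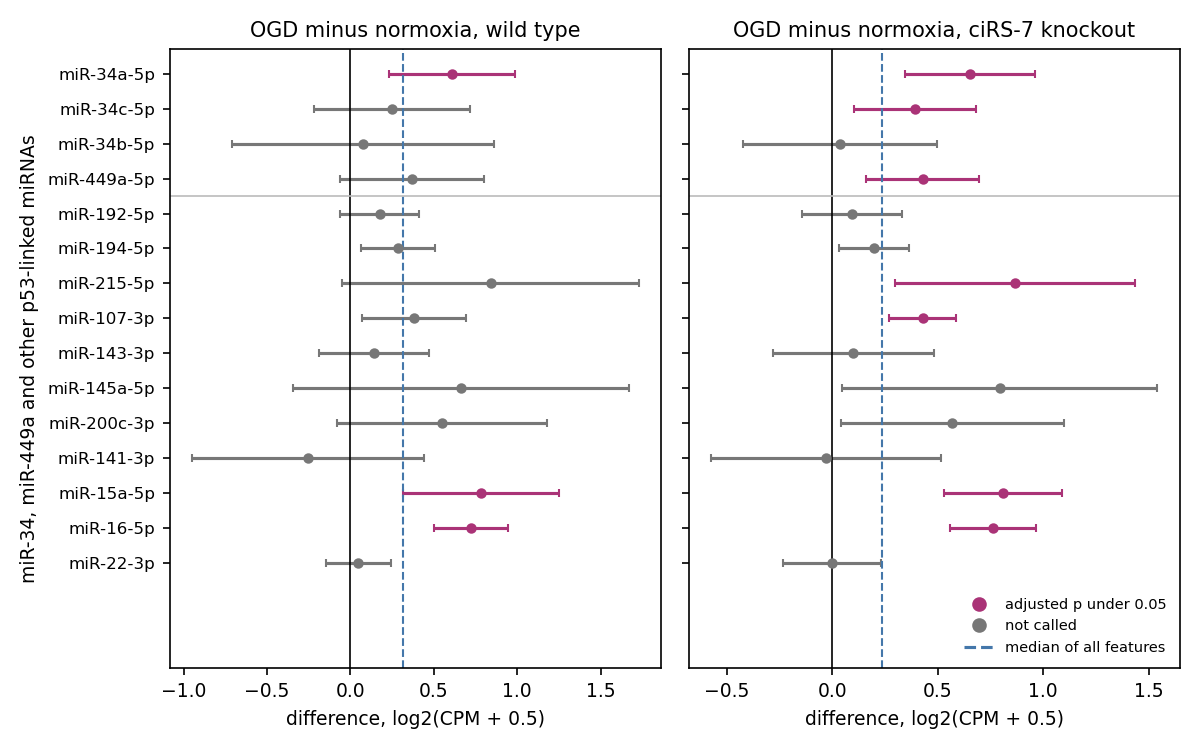
Difference between OGD and normoxia in log2(CPM + 0.5) for the miR-34 5p arms and miR-449a-5p (above the grey line) and 11 p53-linked miRNAs (below it), with 95% intervals; purple marks an adjusted p under 0.05, and the dashed blue line is the median of all features (0.317 in wild type, 0.236 in knockout). miR-34a-5p, miR-15a-5p and miR-16-5p lie to the right of the dashed line in both genotypes, and miR-34b-5p to its left.

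The features whose profile over the 20 libraries was most like that of each abundant member were found from the root mean square difference of log2(CPM + 0.5) after centring each feature on its own mean, among 422 candidates. For miR-34a-5p these were miR-421-3p (0.18), miR-322-5p (0.19) and miR-181c-5p (0.19), where the median over all candidates was 0.41. For miR-34c-5p they were miR-20a-5p (0.22), miR-17-5p (0.22) and miR-21a-5p (0.23), with a median of 0.43. For miR-34b-5p the nearest was its cluster neighbour miR-34c-5p (0.37), then miR-103-3p (0.41) and miR-301a-3p (0.44), with a median of 0.59. The converse did not hold, since miR-34b-5p was not among the 3 nearest to miR-34c-5p.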

How the data were processed

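Per the submitters' processing notes the genome build was mm10 (GRCm38, the build of the RefSeq and GENCODE tables used for positions); the aligner, the miRBase release and the rule for shared reads are not given in the sources used here. RNA was extracted with TRIzol, and small RNA libraries were size-selected, per the labels' protocols. The authors deposited 6 tables of a score, one per pair of groups. The values, named log CPM in the tables' names, were found to be reads times a library factor, raised to a power, with each group's extremes pulled 64% of the way to their neighbours (quantiles 0.16 and 0.84). Undoing both gave whole reads for 100% of values in each table (tolerance 0.05), the same in every table that holds a library (88520 comparisons, 0 differences). This was worked out from the values; no header records it.

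CPM was computed with the authors' library factors. limma 3.58.1 (R 4.3.3; lmFit, eBayes with trend) was run on log2(CPM + 0.5), a scale that understates changes of rare features, for the 10 libraries of each comparison and, for the interaction, all 20. P-values were two-sided and adjusted by Benjamini-Hochberg across every feature tested, with calls at an adjusted p under 0.05. In simulated data (200 of 1478 features changed, wild-type OGD comparison) 62.9% of 1.5-fold changes and 93.1% of 2-fold changes were recovered, with 9.24% and 8.09% of calls false. The changes were put only on features above a minimum level, with the same set spread for every feature and no shift of the rest. miR-34c-5p and miR-34b-5p spread more than that in wild-type normoxia (29.1% and 42.2%), and the 3p arms lay under the minimum level. The simulated rates are therefore not read as those of the members. Ratios had 0.5 reads added to each count. No pair of replicates agreed within sampling noise. Abundant features are those whose log2(CPM + 0.5) averaged at least 3.

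The rule for named miRNAs took all members, the measured miR-449 and p53-linked miRNAs of 2 lists and the 3 features most like each abundant member; marker miRNAs were named after their values were seen. Members and lists were chosen with earlier results of these data known. Alternatives were other scalings (centring, quantile, total reads), pseudocounts of 0.1 and 2 CPM, a filter at a mean of 1 CPM, thinning, limma voom, the deposited score as it stands or with extremes restored, a replicate block and leaving out each library.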

Additional observations from a re-analysis of the deposited data

Results flagged for a closer look

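Within each group of 5, the sample at either end was checked for a gap to its neighbour of more than 0.71 of the group's range, for 5 members and 4 ratios in 4 groups; chance flags about 1 in 20, and 4 of 36 stood out. Of these, 3 were in wild-type normoxic replicate 5, the library that lay nearest to the OGD libraries in the first principal component. Its miR-34b-5p level was 2.27 CPM, where the other 4 libraries ran from 8.88 to 10.9. Its miR-34c-5p level was 32.5 CPM, where the others ran from 70.2 to 80.6. Its log2 ratio of miR-34c-3p to miR-34c-5p was -4.63, where the others ran from -6.25 to -6.00, from 3 and 86 reads. miR-34a-5p did not stand apart there. The other was miR-34c-5p in knockout normoxic replicate 4, at 80.3 CPM where the others ran from 65.1 to 69.4.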

How the results depend on the processing

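Replicate numbers recur in all groups, but same-numbered libraries did not always deviate together (correlations of -0.21 to 0.66 in the OGD comparisons), so they were not taken as pairs; with the replicate block the calls were 389 and 403 features and 1 and 2 members in wild type and knockout, and no ratio passed an exact sign-flip test of same-numbered pairs, whose smallest possible p is 0.0625.

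Members called after OGD, 1 in wild type and 2 in knockout, became 0 and 0 with centred libraries, quantile normalization or the replicate block with centred libraries. They became 0 and 1 with thinning, and 1 in knockout with total reads or the deposited scale with extremes restored. Leaving out 1 library gave 0 to 1 and 1 to 2. Among all features the calls ran from 231 to 693 in wild type and from 239 to 784 in knockout over the 12 settings. With 5 members, a count of 0 is not read as below that background. miR-34a-5p turned to -0.0398 in wild type with quantile normalization. In knockout, miR-34c-5p turned to -0.12 (centred, with or without the block) and -0.062 (quantile), miR-449a-5p to -0.0804 (centred, with or without the block) and -0.0853 (quantile), and miR-107-3p to -0.0814 (centred, with or without the block). miR-194-5p, uncalled in CPM, was called lower at -0.31 in knockout (centred, with or without the block) and at -0.28 in wild type (centred with the block); it was called higher in 6 of 12 settings in wild type and 4 of 12 in knockout, and without wild-type OGD replicate 3 (adjusted p 0.0272) or knockout normoxic replicate 3 (0.043). Uncalled in wild type in CPM, miR-107-3p and the marker miR-137-3p were each called higher in 3 of 12 settings, miR-215-5p in 2 and miR-449a-5p in 1; leaving out 1 library also gave calls for miR-107-3p (0.0423, without normoxic replicate 3), miR-215-5p (0.0104, without OGD replicate 4) and miR-449a-5p (0.0357, without OGD replicate 5). Centred, with or without the block, miR-192-5p was called lower at -0.386 in wild type and -0.417 in knockout, and miR-22-3p at -0.513 in both. The median abundant feature lay at -0.337 in wild type and -0.314 in knockout in centred libraries. Of the markers, miR-137-3p turned to -0.135 in knockout (centred, with or without the block) and -0.251 in wild type (centred with the block), and miR-126a-5p to -0.00551 in wild type (quantile), where it lost its call in 7 of 10 fits that left out a library; miR-128-3p lost its call with extremes restored in both genotypes and with quantile normalization or thinning in knockout, and there also without normoxic replicate 1 or OGD replicate 3. The cause was not tested. Called features numbered 693 (wild type) and 784 (knockout) with limma voom, and 239 in knockout after thinning; leaving out 1 library gave 262 to 341 and 293 to 372. Between genotypes, 33 features in normoxia and 72 after OGD were called on the deposited values as they stand, with no member among them. With extremes restored 1 was called in normoxia, and after thinning 1 after OGD and 1 for the interaction; leaving out 1 library gave 0 to 22 after OGD (22 without knockout OGD replicate 5) and 0 to 1 for the interaction. Uncalled OGD differences of miR-34b-5p, miR-34c-5p in wild type and the 3p arms fell below 0 in centred libraries. Thinning also turned the uncalled OGD differences of miR-34c-3p in wild type (-0.67) and miR-34b-3p in knockout (-0.15) and the genotype difference of miR-34a-5p after OGD (0.11). OGD libraries were shallower, and members under about 10 reads carry mostly counting error.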
